A study of Mus musculus with 2 samples.

Results

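The intervals of 7 genes that act in pluripotent cells or in lineages other than the fibroblast were examined for Brg1 in primary mouse embryonic fibroblasts: Pou5f1, Nanog, Sox2, Myod1, Neurod1, Alb and the beta-globin cluster with Hbb-b1. Each member is the mm9 interval around a gene or cluster, widened by 20 kb on both sides. The genes were chosen with earlier results of these data known, though no measured value enters the rule. The intervals together covered 394 of 2641853 windows of 1 kb. The fibroblasts were harvested at E13.5 from wild-type mice on a mixture of C57BL/6 and 129, and their chromatin was cut with micrococcal nuclease and briefly sonicated. One library was made by chromatin immunoprecipitation (ChIP) with a rabbit polyclonal antibody against Brg1, and the other, the input, from the same kind of cells without an antibody. The libraries held 13581267 ChIP tags and 5778620 input tags, of which 2079 and 949 fell in the 7 widened intervals, or 0.0153% and 0.0164%. Each group is 1 library, so nothing here has a replicate check. Each test compares these libraries rather than conditions, and intervals cover counting error only. The libraries hold no expression values, so that these genes are silent in the fibroblasts was not measured here.

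Brg1 is the ATPase of Swi/Snf (BAF) complexes, which slide and evict nucleosomes at promoters and enhancers. In embryonic stem cells a form of the complex is found at genes of the pluripotency network, of which Oct4 (the product of Pou5f1), Nanog and Sox2 are the core transcription factors. In differentiating cells lineage factors bring Swi/Snf to their targets, as MyoD does at muscle genes and erythroid factors do at the beta-globin locus. In fibroblasts, genes of other lineages are known to be kept off, and the question here is how much Brg1 signal their chromatin carries.

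Among the 5 members with a sequence at hand, ChIP signal relative to input at the gene start was highest at Neurod1 and Sox2. It was lowest at Nanog and Alb, though the counting-error intervals of all 5 overlap. The promoters of these 4 members are shown. Each runs 5′ to 3′ from 250 bases before to 50 bases after the RefSeq gene start on GRCm38.p6, a later build than the mm9 of the tags, and CpG dinucleotides are in capitals.
Sox2 promoter (chr3:34649745-34650044, plus strand): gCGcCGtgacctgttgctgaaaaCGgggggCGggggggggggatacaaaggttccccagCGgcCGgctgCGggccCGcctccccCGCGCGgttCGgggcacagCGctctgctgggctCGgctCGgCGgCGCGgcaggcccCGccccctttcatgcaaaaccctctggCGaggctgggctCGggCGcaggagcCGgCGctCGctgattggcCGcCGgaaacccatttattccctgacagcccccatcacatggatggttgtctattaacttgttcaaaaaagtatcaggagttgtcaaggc
Neurod1 promoter (chr2:79456587-79456886, minus strand): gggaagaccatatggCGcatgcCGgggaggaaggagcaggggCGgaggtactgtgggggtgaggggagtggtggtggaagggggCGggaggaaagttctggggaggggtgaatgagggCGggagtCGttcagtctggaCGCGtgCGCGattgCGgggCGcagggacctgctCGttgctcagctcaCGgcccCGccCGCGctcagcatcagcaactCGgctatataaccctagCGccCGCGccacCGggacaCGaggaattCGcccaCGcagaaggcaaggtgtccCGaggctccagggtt
Nanog promoter (chr6:122707239-122707538, plus strand): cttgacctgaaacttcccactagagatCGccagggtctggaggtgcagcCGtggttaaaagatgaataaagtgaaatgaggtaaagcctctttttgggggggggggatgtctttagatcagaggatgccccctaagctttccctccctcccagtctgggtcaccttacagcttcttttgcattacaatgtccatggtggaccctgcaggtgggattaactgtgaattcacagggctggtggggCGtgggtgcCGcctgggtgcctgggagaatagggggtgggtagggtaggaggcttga
Alb promoter (chr5:90460620-90460919, plus strand): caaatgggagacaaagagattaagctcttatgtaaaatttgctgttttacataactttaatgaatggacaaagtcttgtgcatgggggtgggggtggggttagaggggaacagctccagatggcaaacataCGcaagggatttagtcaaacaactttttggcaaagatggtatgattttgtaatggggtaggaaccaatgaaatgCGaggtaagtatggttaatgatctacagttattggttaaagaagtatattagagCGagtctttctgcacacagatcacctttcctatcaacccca
The table matched 5 of the 7 members, these and Pou5f1. The Sox2 promoter holds 27 CpG dinucleotides and that of Neurod1 26, which 15.5% and 16.9% of 32851 promoters of the same length reach or exceed. Pou5f1 has 11, Nanog 4 and Alb 3, against a median of 7. A GC box (GGGCGG, either strand) occurs 4 times at Neurod1, 2 times at Sox2, once at Pou5f1 and not at Nanog or Alb; 35.7% of all promoters hold at least 1. CCAAT (either strand) occurs 2 times at Alb and once each at Sox2 and Pou5f1, and is held by 37.4% of all promoters. TATAAA (either strand) is in none of the 5 and in 13.6% of all promoters. These matches describe letters only.

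Brg1 signal was not uniformly low across the 7 widened intervals. The scaled ChIP/input ratio, in which 1 stands for the quotient of the libraries' autosomal totals, 2.36, ran from 0.645 over Alb to 1.32 over Nanog. The median of the 7 was 0.930, close to the medians of 0.904 to 0.918 over all genomic tiles of the same widths. The 3 pluripotency genes had the 3 highest values, but this order held only with the flanks included. Over the gene intervals alone Pou5f1 was the lowest of the 7 at 0.694, and Neurod1 (1.31) and Myod1 (1.27) were above Nanog (1.20). No difference between groups of genes was tested, since members are not replicates. Each interval was tested as 1 of the tiles of a genome-wide grid of its own width (two-sided exact binomial test, Benjamini-Hochberg adjusted over all tiles). 1 widened interval was called higher and 3 were called lower at an adjusted p under 0.05. Without flanks, 0 of the 7 gene intervals were called in either direction. Background calls were common at these widths, at 11.4% to 17.5% of tiles higher and 14.5% to 31.5% lower, 12.2% and 16.6% over all 7 grids together, and whether the shares among the 7 members differ from these was not tested.

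**Figure D1:**
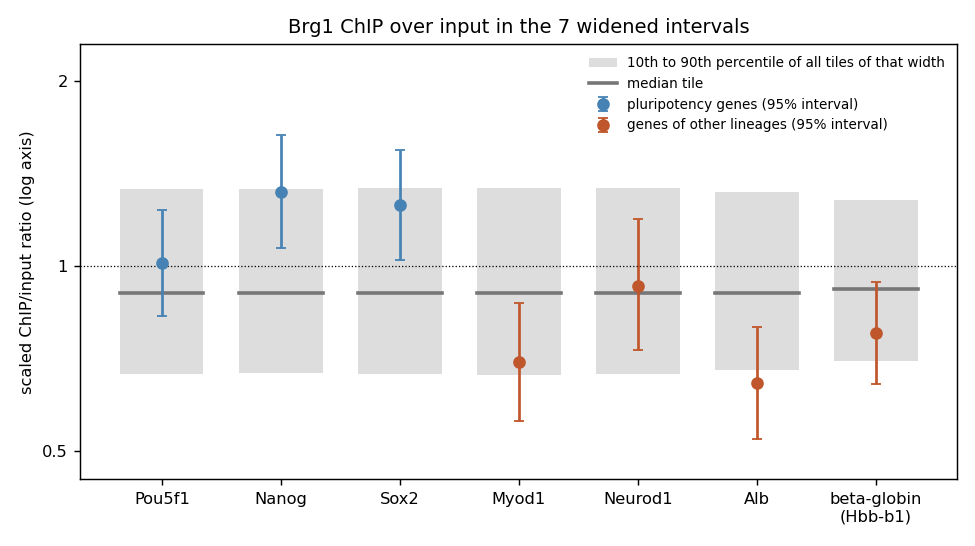
Scaled ChIP/input ratio (log axis) in each widened interval, with points for the value and bars for the exact 95% interval. Grey boxes span the 10th to 90th percentile of all genomic tiles of the same width and the grey line is their median. Nanog at 1.32 and Sox2 at 1.26 lie near the top of the boxes, Myod1 at 0.698 near the bottom and Alb at 0.645 below it.

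Nanog, a homeodomain factor of naive pluripotency, had the highest ratio. Its widened interval on chromosome 6, 122637000 to 122684999, held 373 ChIP tags and 120 input tags. Its ratio was 1.32 (95% interval 1.07 to 1.63, exact test, adjusted p = 0.0344). It was called higher, against 11.9% of tiles of 48 kb, and 89.4% of these had a lower ratio. The signal was uneven along the interval. The lower flank, which lies upstream of the plus-strand gene on the side of Dppa3, held 201 ChIP tags against 54 (ratio 1.58, 1.16 to 2.17). The 8 kb of the gene interval held 51 against 18 (1.20, 0.691 to 2.19), and the upper flank, towards Slc2a3, held 121 against 48 (1.07, 0.760 to 1.53). Within the lower flank, ChIP tags were dense in 2 places. The window at 122652000 to 122652999, which begins 5 kb before the gene interval, had 35 ChIP tags, the most of any 1 kb window in the 7 intervals, but also 8 input tags (ratio 1.86, 0.846 to 4.63). The window at 122639000 to 122639999, which begins 18 kb before it, had 28 against 3 (3.96, 1.22 to 20.4, exact test, adjusted p = 0.421). The second of these lies in the densest 5 kb of the interval, 122638000 to 122642999, which held 82 against 14 tags, a ratio of 2.49 (1.40 to 4.75). That stretch was picked for its ChIP tags, so its ratio carries the bias of that choice.

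Sox2, an HMG-box factor of stem cells and neural progenitors, followed at 379 ChIP tags and 128 input tags on chromosome 3, 34528000 to 34571999. Its ratio was 1.26 (1.03 to 1.55), which was not called (exact test, adjusted p = 0.0827) and lay above 86.0% of tiles of 44 kb, of which 11.4% were called higher. The 4 kb of the gene itself held 62 against 12, a ratio of 2.19 (1.17 to 4.47) and the highest of the 7 gene intervals. Tested without flanks, the gene interval was not called (exact test, adjusted p = 0.241). On its downstream side 179 against 50 tags gave 1.52 (1.10 to 2.12), while the upstream flank had 138 against 66 (0.887, 0.657 to 1.21). The window with the highest lower bound lay inside the gene interval at 34550000 to 34550999, with 17 ChIP tags and 1 input tag (7.21, 1.13 to 301, exact test, adjusted p = 0.522). Of 44 windows, 15 held at least 10 ChIP tags, the largest number among the 7 members; 12.5% of autosomal windows reach that count.

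Pou5f1, which encodes Oct4, was near the genome average. Its widened interval on chromosome 17, 35622000 to 35667999, held 343 ChIP tags and 144 input tags, which put the ratio at 1.01 (0.830 to 1.24, exact test, adjusted p = 0.994), above 65.0% of tiles of 46 kb. Both libraries were dense there, at 1.40 and 1.38 times their autosomal means. The gene interval of 6 kb had the lowest ratio of the 7 gene intervals, 0.694 (0.398 to 1.24) from 36 against 22 tags. ChIP tags gathered beyond the gene's end, on the side of Tcf19 and Cchcr1, the next genes in RefSeq order. The densest 5 kb, 35650000 to 35654999, begins 2 kb past the gene interval and held 92 against 19 tags, a ratio of 2.05 (1.24 to 3.57). It was picked in the same way as that at Nanog. In the flank before the gene, 107 against 50 tags gave 0.908 (0.643 to 1.30).

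**Figure D2:**
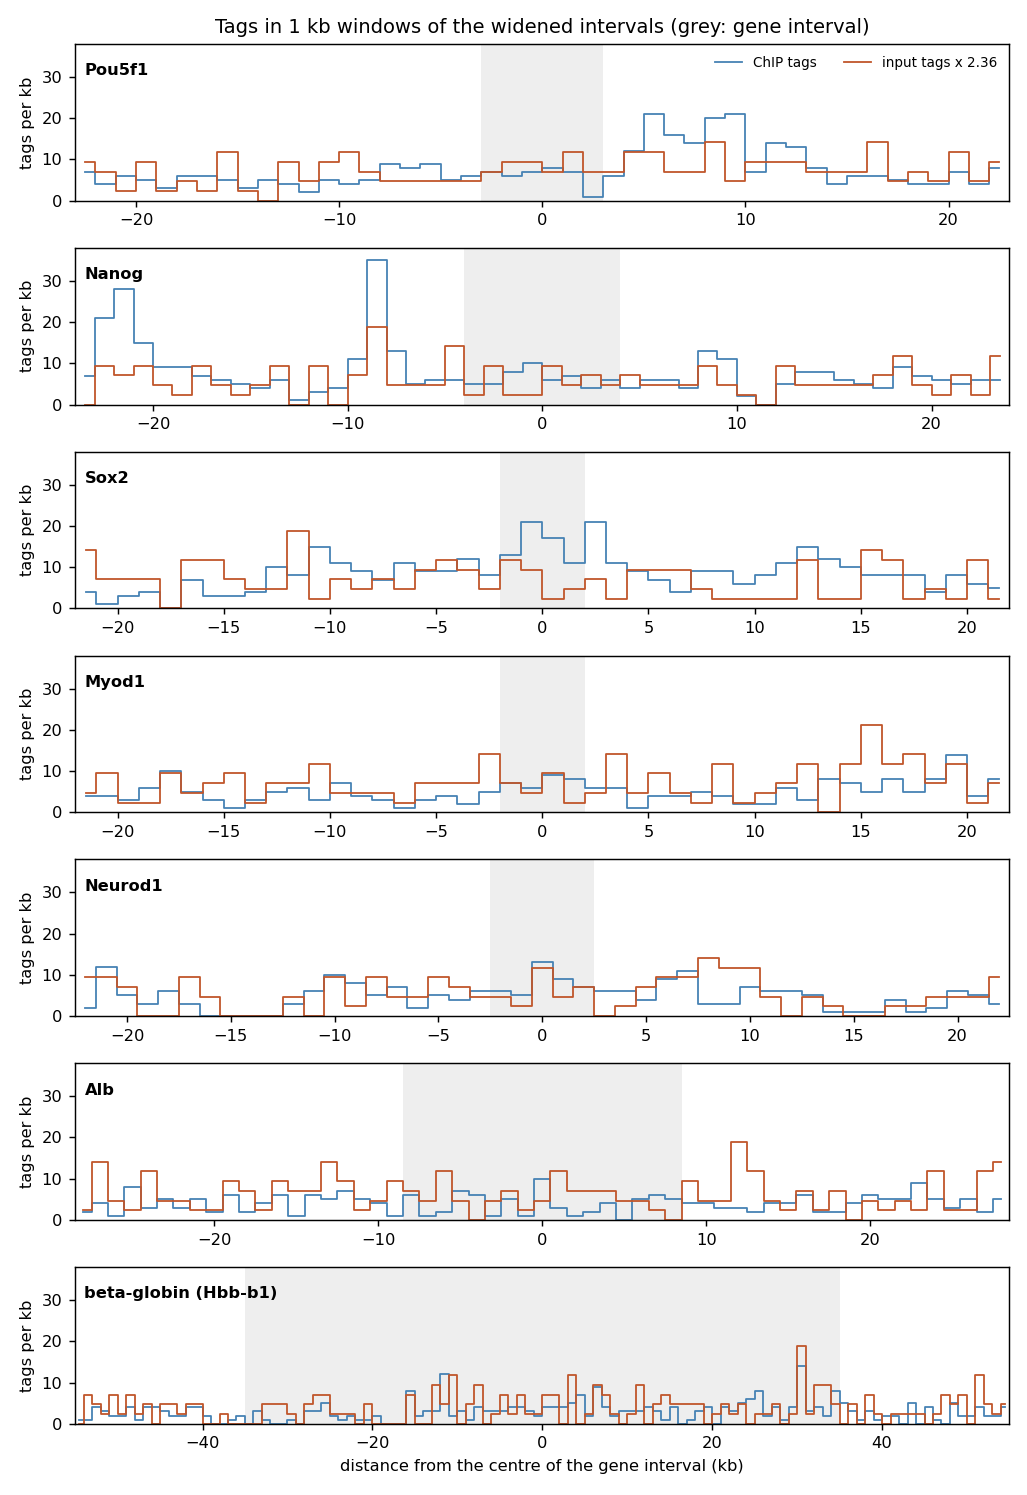
ChIP tags (blue) and input tags multiplied by 2.36 (orange) per 1 kb window, against distance from the centre of each gene interval in kb; grey marks the gene interval. ChIP tags exceed the scaled input past the end of Pou5f1, at 2 places before Nanog and over Sox2, and stay at or under it along most of Alb.

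Alb, which encodes serum albumin, the main secreted protein of hepatocytes, had the lowest ratio. The widened interval on chromosome 5, 90869000 to 90925999, held 228 ChIP tags and 150 input tags (0.645, 0.523 to 0.798, exact test, adjusted p = 0.000621). It was called lower, against 19.3% of tiles of 57 kb, and 6.17% of these had a lower ratio. The deficit was even: the flank before the gene was at 0.606 (0.426 to 0.869), the 17 kb of the gene at 0.707 (0.468 to 1.08) and the flank beyond it, on the side of Afp, at 0.640 (0.450 to 0.918). Input density was 1.16 times the autosomal mean and ChIP density 0.748 times. The low ratio was thus not accompanied by few input tags. Of 57 windows, 1 reached 10 ChIP tags.

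Myod1, the muscle-determining bHLH factor that can turn fibroblasts into muscle when expressed in them, held 222 ChIP tags and 135 input tags on chromosome 7, 53611000 to 53654999. The ratio was 0.698 (0.561 to 0.871, exact test, adjusted p = 0.0101), called lower against 14.6% of tiles of 44 kb, and 14.3% of these were lower still. Both flanks were low, at 0.633 (0.444 to 0.907) on the side of Otog and 0.667 (0.490 to 0.913) on the side of Kcnc1. The 4 kb gene interval held 30 against 10 tags and was at 1.27 (0.606 to 2.92), with an interval on both sides of 1. The input was dense, at 1.35 times the autosomal mean and above 85.5% of tiles of this width. ChIP density was 0.944 times its mean and above 55.5% of tiles.

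The beta-globin cluster, which holds the embryonic and adult beta-like globin genes of red cells, was the sparsest region in both libraries. Over 110 kb of chromosome 7, 110930000 to 111039999, it held 317 ChIP tags and 173 input tags, or 0.539 and 0.693 times the autosomal means. The ratio was 0.778 (0.644 to 0.941, exact test, adjusted p = 0.0235), called lower against 31.5% of tiles of 110 kb, and 23.7% of these were lower. Along the cluster, 11 segments of 10 kb had ratios from 0.453 to 0.934, all under 1. The interval of 1 of them, 110950000 to 110959999 with 16 against 15 tags, stayed below 1 (0.453, 0.210 to 0.983). The densest 5 kb, 111015000 to 111019999 at the cluster's upper end, held 31 against 19 tags, at 0.692 (0.379 to 1.30), so input tags were dense there too. Of 110 windows, 6 held no tag in either library, where 8.33% of all 1 kb windows of the genome held none. Hbb-b1 and Hbb-b2 are near-identical copies, and no source at hand says how the alignment placed tags that match both, so tags at these genes are uncertain.

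Neurod1, a bHLH factor of neurons and endocrine pancreas, was close to the typical tile. It held 217 ChIP tags and 99 input tags on chromosome 2, 79272000 to 79316999, which put the ratio at 0.930 (0.730 to 1.19, exact test, adjusted p = 0.723), above 54.0% of tiles of 45 kb. Its gene interval of 5 kb held 40 against 13 tags, at 1.31 (0.684 to 2.66), and its flanks were at 0.900 (0.614 to 1.34) and 0.849 (0.587 to 1.24). 3 of its 45 windows held no tag in either library, where 8.33% of all 1 kb windows of the genome held none.

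**Figure D3:**
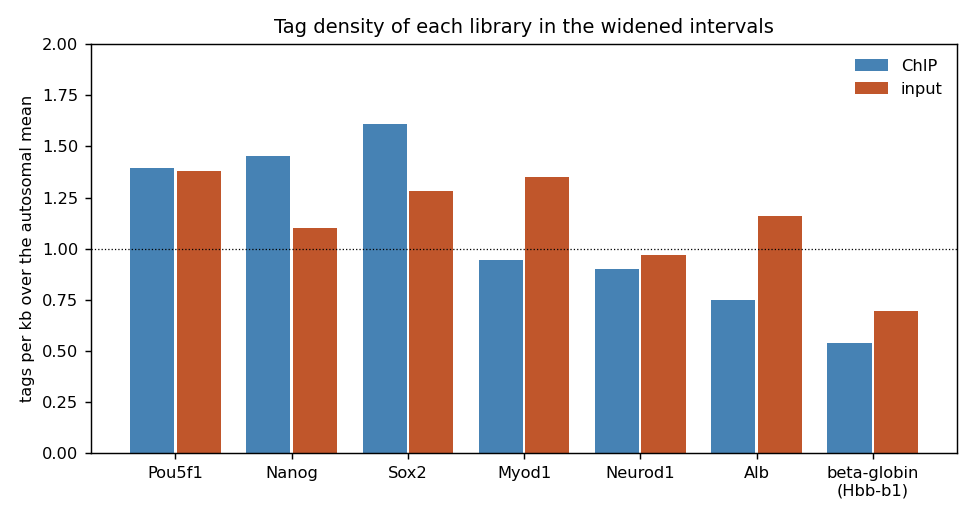
Tags per kb in each widened interval divided by the autosomal mean of the same library, for ChIP (blue) and input (orange). Sox2 has the densest ChIP at 1.61 times the mean, and the beta-globin cluster has the fewest tags in both libraries, at 0.539 and 0.693 times.

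In ascending order the ratios were those of Alb, Myod1, beta-globin, Neurod1, Pou5f1, Sox2 and Nanog. None of the 6 pairs of neighbours in this order differed beyond counting error, though sorting makes neighbours close by construction. Their quotients ran from 1.05 for Nanog over Sox2 (0.780 to 1.41) to 1.24 for Sox2 over Pou5f1 (0.931 to 1.66). Of all 21 pairs, each taken as higher over lower, 10 had a 95% interval above 1, not adjusted for the number of pairs. How often pairs of other genomic tiles separate in this way was not measured, so this count does not set the members apart. Nanog was 2.04 times Alb (1.51 to 2.77) and Sox2 was 1.95 times Alb (1.45 to 2.62). Pou5f1 over beta-globin, at 1.30 (0.985 to 1.72), did not clear its error.

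The gene intervals were next compared with their own 20 kb flanks, which needs no scaling between libraries. The inner ratio was above that of the flanks at 5 of 7 members. The median tile cut in the same way stood at 0.966 to 1.00, and whether 5 of 7 differs from the share over all tiles was not tested. None of the 7 differences was called (two-sided exact conditional test, adjusted over all tiles of each grid). Over the tiles of all 7 grids 0.683% were called higher and 0.375% lower. Without adjustment, 0 of the 7 had a p under 0.05. Myod1 stood at 1.95 (0.889 to 4.63, exact test, adjusted p = 0.921) and Sox2 at 1.89 (0.964 to 3.99, exact test, adjusted p = 0.825). Neurod1 stood at 1.495 (0.735 to 3.21), Alb at 1.13 (0.697 to 1.86), beta-globin at 1.11 (0.724 to 1.68), Nanog at 0.898 (0.489 to 1.71) and Pou5f1 at 0.650 (0.356 to 1.21). Among the 5 transcription factor genes, Myod1, Sox2 and Neurod1 lay above 89.9%, 89.0% and 81.2% of tiles cut in the same way, Nanog above 42.0% and Pou5f1 above 17.1%. Their gene intervals held 10 to 22 input tags, and each of the 95% intervals above includes 1.

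Windows of 4 kb were centred on the gene starts, taken as ends of the gene intervals, which are rounded to 1 kb. These windows are much wider than the 300 bases printed above, so their values are not those of the promoter sequences alone. At Neurod1, 28 ChIP tags and 6 input tags gave 1.98 (0.805 to 5.85), above 91.3% of such windows in the genome. At Sox2, 54 against 15 gave 1.53 (0.850 to 2.91). Pou5f1 had 24 against 11, at 0.926 (0.437 to 2.09), and Nanog 22 against 13, at 0.718 (0.346 to 1.55). Alb had 12 against 11, at 0.463 (0.187 to 1.16), and 7.81% of windows were lower. Myod1 is not in the promoter table, so both ends of its interval were measured, at 0.606 (0.291 to 1.30) and 0.947 (0.477 to 1.98). None of these 7 windows was called by the exact test, against 1.71% of all windows higher and 0.153% lower, and none had an unadjusted p under 0.05. The beta-globin cluster has no single start and was left out. Among the 5 with a sequence, the CpG-rich starts of Sox2 and Neurod1 had the 2 highest values. The CpG-poor starts of Nanog and Alb had the 2 lowest. This describes 5 sites only. The bracketed intervals of these 5 all overlap and each includes 1, so their order is not established beyond counting error. A link between CpG content and Brg1 signal was not tested.

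No narrow site of enrichment was called in any of the 7 intervals, where most 1 kb windows held too few tags for a test. The lack of calls thus does not show that such sites are absent. Of their 394 windows of 1 kb, 108 held the 10 tags needed for a test, and the exact binomial test called 0 of them in either direction (adjusted p under 0.05, with a change of 1.5 times or more). Only 10 windows in the members held at least 20 tags. With fewer, a window could not be called higher even if all its tags came from the ChIP. In the genome 0.380% of all tested windows were called higher and 0.00666% lower. The 0 called of 108 thus does not set the members apart and bounds no share called higher. The lowest adjusted p was 0.306. At an unadjusted p under 0.05, 3 windows were higher, 1 each at Pou5f1, Nanog and Sox2, and 2 were lower, at Myod1 and Alb, which is 2.78% and 1.85% of tested windows against 5.98% and 1.70% in the genome. The window at Pou5f1, 35654000 to 35654999, held 21 against 2 tags (4.46, 1.09 to 39.2). The window beyond Alb, 90909000 to 90909999, held 3 against 8 (0.159, 0.0272 to 0.663). The nearest window called higher lay 125 kb from the gene interval of Pou5f1, 136 kb from Nanog, 178 kb from Neurod1, 399 kb from Alb and 454 kb from Myod1. It lay 1528 kb from the beta-globin cluster and 1831 kb from Sox2, which had none within 500 kb. Called windows are sparse, at 2684 higher among the 2641853 windows of the genome. Distances from other places in the genome were not measured, so these do not set the members apart.

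Set against 500 kb of chromatin on either side, a comparison chosen after the data were seen, Sox2 and Alb were called, in opposite directions. Over the tiles of all 7 grids, 8.56% were higher and 8.81% lower than their surroundings. The surroundings of Sox2 were poor in ChIP signal at 0.783 (0.744 to 0.824), and its interval was 1.60 times as high (1.30 to 1.99, exact test, adjusted p = 0.000172). It was called higher, against 8.00% of tiles compared in the same way, and lay above 97.4% of them. The surroundings of Alb were at 1.23 (1.18 to 1.29), and the Alb interval was at 0.524 of that (0.423 to 0.652, exact test, adjusted p = 5.55e-07). It was called lower, against 10.2% of tiles, and 0.296% of tiles were lower still. The Pou5f1 interval was at 0.759 of surroundings that were high at 1.33 (1.28 to 1.39), a quotient with a 95% interval of 0.620 to 0.933 that was not called (exact test, adjusted p = 0.0519). The beta-globin interval was at 1.07 of its surroundings (0.876 to 1.31), which were as low as the cluster, at 0.726 (0.680 to 0.777). Nanog was at 1.16 of its surroundings (0.937 to 1.45), Neurod1 at 0.842 (0.658 to 1.08) and Myod1 at 0.808 (0.646 to 1.01), none of them called. Among the 3 intervals called lower in the genome-wide comparison, Alb was therefore the 1 that was also called lower than its surroundings.

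**Figure D4:**
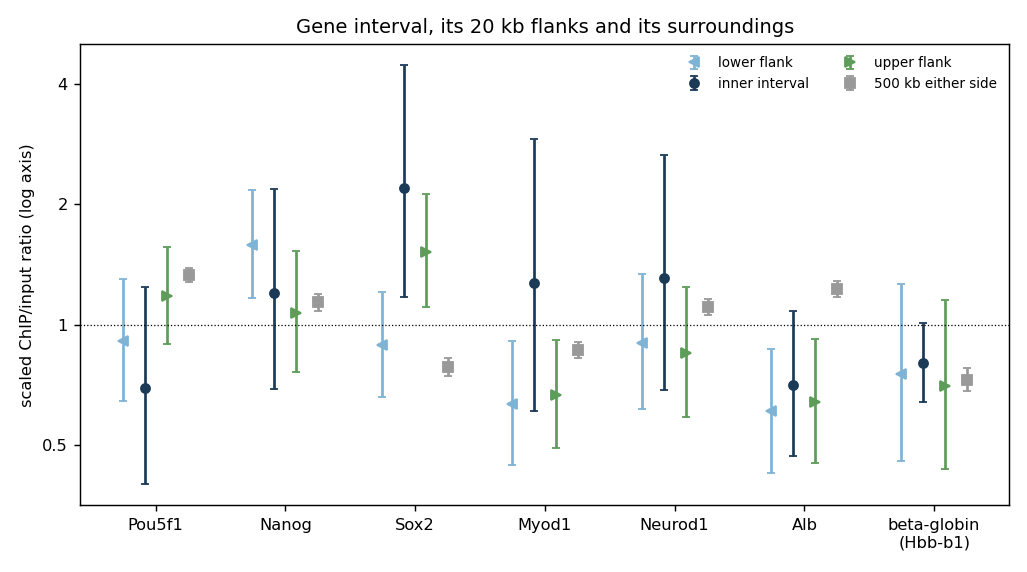
Scaled ChIP/input ratio (log axis) with exact 95% intervals for the lower flank, the gene interval, the upper flank and 500 kb on either side outside them. The 3 parts of the Alb interval, at 0.606 to 0.707, lie below surroundings at 1.23, while the Sox2 gene interval at 2.19 lies above surroundings at 0.783. Only whole widened intervals, not their single parts, were tested against the surroundings.

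The reference point of the ratio bears on the calls. Most tiles lay below 1, and taking the median tile of each width as the reference instead, also chosen after the data were seen, Nanog (1.46) and Sox2 (1.39) were called higher and Alb (0.712) lower, while the calls of Myod1 (0.772) and beta-globin (0.847) were lost; 18.8% of all tiles were then higher and 6.55% lower. Scaling to windows with few ChIP tags raised all ratios by 0.43 on the log2 scale and the share of tiles called higher to between 38.1% and 55.0%. Under it Nanog, Sox2 and Pou5f1 were called higher, no interval was called lower, and beta-globin (1.05) and Neurod1 (1.26) passed from below to above 1. The width of the flanks bears on the calls as well. With flanks of 10 kb the calls of Nanog (1.20, exact test, adjusted p = 0.416), Myod1 (0.674, adjusted p = 0.0832) and beta-globin (0.815, adjusted p = 0.111) were lost and Sox2 was called higher (1.60, adjusted p = 0.00729). With flanks of 50 kb Sox2 passed below 1, to 0.956 (0.828 to 1.11). Alb kept its call with flanks of 10, 20 and 50 kb and lost it without flanks (0.707, 0.468 to 1.08, exact test, adjusted p = 0.336). The percentiles among tiles given above do not move with either scaling.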

How the data were processed

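Both files are the authors' deposited counts: each lists a chromosome, strand, position and number of tags, with no normalization. Bowtie and mm9 are named, per the submitters' processing notes; versions, settings and any filter on repeated tags are not given in the sources used here. Tags were moved 75 bp along their strand and counted. ChIP counts were scaled by the autosomal totals, 13215004 and 5608004. Regions with at least 10 tags in both libraries together were tested, with the smaller binomial tail doubled. Ratios have exact conditional 95% intervals; the gene interval and surroundings were compared by an exact hypergeometric test. The genome was tiled at each interval's width on a grid holding that interval, and p-values were adjusted over all its tiles. Named were all 7 members, called windows, the 1 kb window with the highest lower bound and, after the data were seen, the densest stretches. The members and lists were chosen with earlier results of these data known. An mm9 annotation was not used here, so gene positions are the given intervals, rounded to 1 kb, and no further genes were measured; RefSeq GRCm38.p6 gave promoters, strands and gene order. The steps were tested on simulated data. Alternatives changed the scaling, repeated tags, tag position, flanks, widths and minimums. Python 3.11.15, numpy 2.4.6, scipy 1.17.1, pandas 2.3.3 and matplotlib 3.10.9 were used.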

Additional observations from a re-analysis of the deposited data

How the results depend on the processing

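With at most 1 tag per position, 1 tag per strand within 5 bp, unmoved tags or chromosome totals, all 7 intervals kept their direction and side of the threshold. Scaling to windows with few ChIP tags, which selects for low ChIP counts by construction, gave Pou5f1 1.37, Sox2 1.70, Myod1 0.943, Neurod1 1.26, Alb 0.872 and beta-globin 1.05, with 3 intervals called higher and 0 lower. Scaling to the median tile gave Sox2 1.39, Myod1 0.772, Neurod1 1.03 and beta-globin 0.847, with 2 higher and 1 lower. With flanks of 10 kb, which hold fewer tags, Nanog was at 1.20, Sox2 at 1.60 (called), Myod1 at 0.674 and beta-globin at 0.815, with 1 called lower. With flanks of 50 kb Pou5f1 was at 0.985 and Sox2 at 0.956. Without flanks Pou5f1 was at 0.694, Nanog 1.20, Sox2 2.19, Myod1 1.27, Neurod1 1.31, Alb 0.707 and beta-globin 0.802. Of these, 0 were called in either direction. A minimum ratio of 1.5 removed the calls of Nanog (1.32), Myod1 (0.698) and beta-globin (0.778), leaving 0 higher and 1 lower. Of values not called, the gene interval over its flanks passed 1 at Nanog (1.01) and beta-globin (0.900) with flanks of 10 kb and at beta-globin (0.983) with 50 kb. The gene start of Pou5f1 was 1.25 and the upper end of Myod1 1.28 with scaling to windows of few ChIP tags, and 1.10 and 1.98 in windows of 2 kb; the cause was not tested. No 1 kb window was called under any alternative, nor any of 500 bp or 5 kb, but the share called higher in the genome moved widely. It was 19.4% with a minimum of 20 tags, which only 10 windows in the members reached, 2.67% with scaling to windows of few ChIP tags, 2.15% for 5 kb windows, of which 73 were tested in the members, and 0.00376% to 0.378% under the others. No paired analysis was possible because there is only 1 library on each side. Depth limits all values: the 7 widened intervals held 99 to 173 input tags and the gene intervals 10 to 118.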
